A study of Homo sapiens with 12 samples.

Results

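CPA4 and the 6 genes listed with it from chromosome band 7q32 (CPA1, CPA5, CEP41, MEST, COPG2 and KLF14) were followed through 12 RNA-seq libraries of RKO, a human colon carcinoma cell line. CPA4 was chosen because it rose steeply with PRDM1 overexpression in these same libraries, whereas the other 6 were taken for their position. The 7 genes are rows of a count table of 26364 genes. Of them, 4 (CPA4, CEP41, MEST and COPG2) had enough counts to be tested, CPA5 had a handful of counts, and CPA1 and KLF14 had none in any library. The question was whether the rise was limited to CPA4. For context the stretch was widened to all genes between UBE2H and PODXL, for which RefSeq lists 44 entries, 22 of them have a row in the files, and 12 could be tested.

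The libraries were made from polyadenylated RNA with a stranded kit and form 6 groups of 2. These are wild-type RKO, KO2 and KO5 (each a derivative with PRDM1 knocked out by CRISPR/Cas9), and cells made to overexpress GFP, PRDM1α or PRDM1β. The labels do not say which vector or promoter drives the overexpression, whether KO2 and KO5 are clones, or whether replicate libraries stem from separate dishes, so that p-values measure only the spread between these libraries. Gene counts per library ranged from 19058967 to 55961821, and values are given as CPM, a gene's counts scaled to a library total of 1000000 gene counts, which are not scaled for gene length and are compared here only within a gene.

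PRDM1, also called Blimp-1, is a zinc-finger transcription factor best known as a repressor that drives terminal differentiation of plasma cells. Its β form comes from an internal promoter and lacks the front portion of the protein, including part of the PR domain. The 7q32 stretch is known for genomic imprinting, in which the parental origin of an allele decides whether it is expressed. MEST is expressed from the paternal allele in many tissues, KLF14 is a maternally expressed gene for a Krüppel-like transcription factor, and CPA4 has been described as preferentially maternal in some fetal tissues. CPA1, CPA4 and CPA5 encode zinc carboxypeptidases, which clip residues from the C-terminal end of proteins. The counts are not split by allele, so imprinting itself was not measured.

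The stretches before start sites of CPA4, CPA1 and MKLN1 are printed here. CPA4 changed most, and CPA1 is a silent carboxypeptidase gene close by. The MKLN1 start printed shares its region with LINC-PINT, a gene described further on that fell. LINC-PINT has entries of its own, whose sequences are not printed. MKLN1 has another entry, at chr7:131327626-131327875, which is not printed. RefSeq promoter entries were found for 6 of the 7 members. Each sequence is the 250 bases before the annotated start in GRCh38.p14, at chr7:130292911-130293160 (plus strand) for CPA4, chr7:130380244-130380493 (plus strand) for CPA1 and chr7:131109844-131110093 (plus strand) for MKLN1. The deposited counts used build hg19, and these coordinates were not carried over to it. Capitals mark GAAAG, the core of the PRDM1 motif, and TGACTCA, the AP-1-type motif, on either strand (CTTTC and TGAGTCA).
CPA4: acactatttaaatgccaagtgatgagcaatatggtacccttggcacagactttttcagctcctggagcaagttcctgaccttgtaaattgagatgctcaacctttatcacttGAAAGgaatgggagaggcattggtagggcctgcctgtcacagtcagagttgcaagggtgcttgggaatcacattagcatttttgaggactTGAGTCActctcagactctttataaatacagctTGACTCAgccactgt
CPA1: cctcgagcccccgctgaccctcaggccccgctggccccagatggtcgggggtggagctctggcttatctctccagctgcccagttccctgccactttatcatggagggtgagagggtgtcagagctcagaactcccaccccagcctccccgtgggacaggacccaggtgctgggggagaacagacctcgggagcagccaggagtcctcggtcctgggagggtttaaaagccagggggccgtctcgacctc
MKLN1: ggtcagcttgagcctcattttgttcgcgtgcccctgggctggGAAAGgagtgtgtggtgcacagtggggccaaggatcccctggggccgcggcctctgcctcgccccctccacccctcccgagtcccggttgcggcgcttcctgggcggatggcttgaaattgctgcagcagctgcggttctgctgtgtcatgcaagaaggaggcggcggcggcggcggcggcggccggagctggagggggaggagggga

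The CPA4 stretch held GAAAG once, with its first base at position -138 from the start, and TGACTCA matches at -48 (on the opposite strand) and at -15. GAAAG was found on either strand in 48.9% of 34943 promoter stretches of this length. The fuller PRDM1 motif AGNGAAAG (CTTTCNCT on the other strand), found in 6.57% of all stretches, did not match in CPA4 or in any of the stretches of the 5 other members with an entry. At least 1 TGACTCA match occurred in 4.22% of all stretches and at least 2 matches in 0.183%. The AP-1-type motif was chosen after the CPA4 sequence had been seen. TATAAA or its reverse TTTATA, found in 10.8% of stretches, matched at -30 and -28 in CPA4 as a pair of overlapping matches. The CPA4 stretch held 0 CpG pairs, against a median of 11 over all stretches, and 44.4% G and C, against a median of 58%. The CPA1 stretch had 9 CpG pairs and 66% G and C and matched none of these motifs, nor did those of CEP41 and COPG2. KLF14 had a GAAAG match at -158, and MEST had 1, at -127, in 1 of its 5 stretches. MKLN1 had a GAAAG match at -208 in the stretch printed. The LINC-PINT stretches at that start, chr7:131109926-131110175 and chr7:131109917-131110166, held no GAAAG, nor did that at chr7:130913311-130913560. LINC-PINT had GAAAG matches at -120 and -26 in its stretch at chr7:131107031-131107280. These matches describe the letters of the stretches only. No binding was measured.

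PRDM1 itself checks the labels. It had 11475 and 9681 counts (487 and 480.1 CPM) in the PRDM1α libraries and 22395 and 28423 counts (1175 and 1176 CPM) in the PRDM1β libraries. The wild-type libraries had 4 counts each and the GFP libraries 2 and 6. KO2 had 0 and 1, and KO5 had 1 and 1. PRDM1 RNA was therefore near the limit of 3 counts in wild-type cells already, and a loss of it in the knockouts was not detectable at this depth.

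CPA4 encodes a secreted carboxypeptidase that removes hydrophobic C-terminal residues. It was low, at 17 to 54 counts, in every library without introduced PRDM1. It was among the well-measured genes in every library with it. The wild-type libraries had 0.767 and 0.965 CPM (28 and 54 counts). KO2 had 0.796 and 0.477 CPM (35 and 17 counts), and KO5 had 1.57 and 1.26 CPM (47 and 36 counts). GFP had 1.50 and 1.05 CPM (38 and 29 counts). No library of these 4 groups reached 2 CPM. The PRDM1α libraries had 188 and 182 CPM (4436 and 3663 counts). The PRDM1β libraries had 86.2 and 81.8 CPM (1642 and 1976 counts). All 4 PRDM1 libraries thus lay far above all 8 others, and the 2 forms did not overlap.

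As ratios of summed counts, CPA4 was 146 times its GFP level with PRDM1α (95% exact binomial interval 115 to 189, counting error only) and 66.1 times with PRDM1β (51.9 to 85.5). The fitted log2 fold changes were 7.19 ± 0.18 (SE) and 6.05 ± 0.18. Against wild type in place of GFP they were 7.71 and 6.57. Since CPA4 was chosen on this rise, these values are a description and no test is given. The PRDM1α libraries exceeded the PRDM1β libraries by 1.14 ± 0.04 on the log2 scale, again as a description, since all 4 of these libraries are among those that chose the gene. PRDM1 RNA was ordered the other way, higher in PRDM1β. In this comparison 6.24% of the 12858 tested genes passed an adjusted p of 0.05 in edgeR's quasi-likelihood test, the threshold used throughout (3.45% higher and 2.79% lower with PRDM1α).

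CPA4 was not chosen on the small differences among the 4 groups with little of it. The GFP, KO2 and KO5 libraries were, however, the low side of the contrasts that chose it. The adjusted p of these differences are therefore descriptive only. In order of mean level the groups were KO5 (1.41 ± 0.216 CPM, SD, n = 2), GFP (1.27 ± 0.312), wild type (0.866 ± 0.140) and KO2 (0.637 ± 0.225). KO5 and GFP overlapped. GFP did not pass against wild type (log2 difference 0.52 ± 0.24, adjusted p = 0.134), nor did KO2 (-0.40 ± 0.26, adjusted p = 0.251). With a library left out these differences were 0.26 (without GFP replicate 1) to 0.75 for GFP, and -0.85 (without KO2 replicate 1) to -0.12 (without KO2 replicate 2) for KO2, which was at -0.20 without wild-type replicate 2, and none of them passed. KO5 was above wild type by 0.70 ± 0.23 (adjusted p = 0.00998), a call that was lost without wild-type replicate 1 (0.58, adjusted p = 0.0587) or without KO5 replicate 1 (0.53, adjusted p = 0.159). KO5 was above KO2 by 1.10 ± 0.26 (adjusted p = 2.99e-04), which as a ratio of counts was 2.17 (1.51 to 3.13, counting error only). The 2 knockout derivatives thus did not move CPA4 alike, at levels where a group holds 52 to 83 counts.

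MEST encodes a membrane protein of the alpha/beta-hydrolase family and is the best known imprinted gene of the band. It had 97.0 and 92.2 CPM in wild type, 101 and 101 in KO2, 91.1 and 94.0 in KO5, and 97.7 and 95.1 in GFP. With PRDM1α it had 121 and 124 CPM, and with PRDM1β 116 and 109. Every PRDM1 library was above all 8 others. MEST rose by 0.36 ± 0.04 on the log2 scale with PRDM1α (adjusted p = 1.63e-10) and by 0.22 ± 0.04 with PRDM1β (adjusted p = 7.84e-06), each against GFP. It was higher with PRDM1α than with PRDM1β by 0.13 ± 0.04 (adjusted p = 0.0302), which was lost without PRDM1α replicate 1 (adjusted p = 0.0899), PRDM1α replicate 2 (0.188) or PRDM1β replicate 2 (0.432) and under DESeq2 (0.119).

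COPG2 encodes a gamma subunit of the COPI coat, which wraps vesicles moving between the Golgi and the endoplasmic reticulum. It had 19.1 and 19.4 CPM in wild type, 21.4 and 20.5 in KO2, 14.6 and 14.5 in KO5, and 19.6 and 19.2 in GFP. With PRDM1α it had 21.2 and 22.9 CPM, and with PRDM1β 21.3 and 21.5. The PRDM1 libraries were above GFP and wild type but overlapped KO2, and KO5 was lowest. The difference from GFP was 0.19 ± 0.07 for PRDM1α (adjusted p = 0.0308) and 0.15 ± 0.07 for PRDM1β (adjusted p = 0.0905). The PRDM1α call was lost with no filter on low counts (adjusted p = 0.0539), with only the compared groups in the fit (0.0658), under DESeq2 (0.156), and without GFP replicate 1 (0.0691), GFP replicate 2 (0.130) or PRDM1α replicate 2 (0.235). Against wild type in place of GFP it passed for both forms (0.20, adjusted p = 0.0102, and 0.16, adjusted p = 0.0374).

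CEP41 encodes a centrosomal and ciliary protein needed for glutamylation of tubulin and mutated in Joubert syndrome. It had 29.7 and 29.8 CPM in wild type, 37.4 and 36.8 in KO2, 18.7 and 21.2 in KO5, and 31.9 and 30.6 in GFP. With PRDM1α it had 35.6 and 31.5 CPM, and with PRDM1β 30.7 and 29.3. Both PRDM1 groups overlapped GFP, and the widest separation in this gene was between the knockout derivatives. The difference from GFP was 0.12 ± 0.06 for PRDM1α (adjusted p = 0.145) and -0.05 ± 0.06 for PRDM1β (adjusted p = 0.560). For PRDM1α it passed with wild type as the control (0.19, adjusted p = 0.00810) and without PRDM1α replicate 2 (0.20, adjusted p = 0.0338).

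Among the 3 tested members other than CPA4, MEST and COPG2 thus passed upward with PRDM1α and MEST alone with PRDM1β, and none passed downward. Over all 12858 tested genes, 37.5% passed with PRDM1α (21.2% higher and 16.3% lower) and 40.9% with PRDM1β (22.9% higher and 18% lower). The largest difference from GFP in these 3 genes was 0.36 on the log2 scale, against 7.19 for CPA4.

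**Figure D1:**
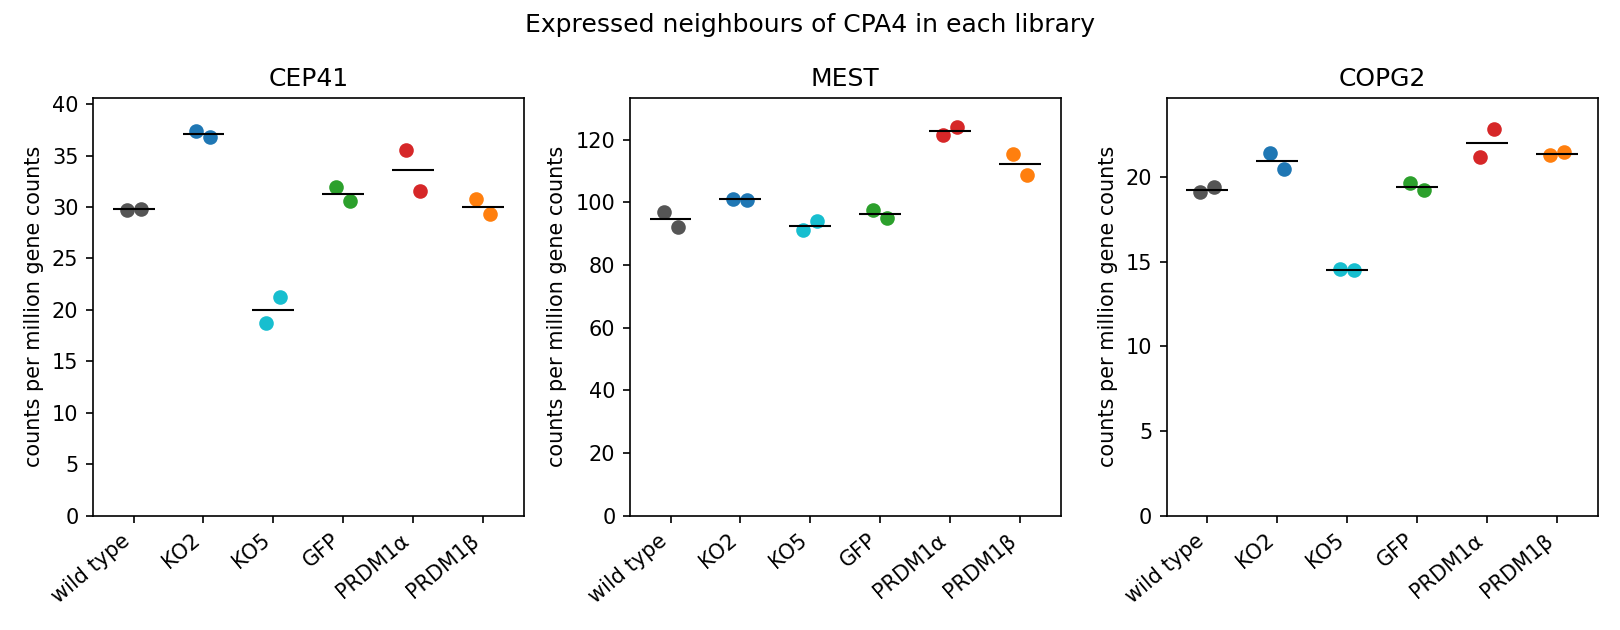
CEP41, MEST and COPG2 in CPM on axes from 0, 1 point per library and a line at each group mean. MEST lies between 109 and 124 in the 4 PRDM1 libraries and between 91.1 and 101 in the 8 others, and CEP41 and COPG2 are lowest in KO5.

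The remaining members stayed at or near 0. CPA1, a digestive enzyme of the exocrine pancreas, and KLF14 had 0 counts in all 12 libraries, which together allows up to 0.0081 CPM. CPA5, the carboxypeptidase gene next to CPA4, had 1 and 3 counts in the PRDM1α libraries, 3 and 1 in the PRDM1β libraries and 0 in the 8 others. These are 8 counts of 86959061 (0.092 CPM) against 0 of 283570569, which allows up to 0.0106 CPM. The level in the PRDM1 libraries was thus 8.7 times the limit, taken as 3 counts over the 8 others. This leaves out the counting error of the 8 counts, so it is no lower bound on the fold. The 0 counts set no upper bound either. CPA5 remained under 0.2 CPM in each library. It was too low for the test.

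Of the sparse genes in the wider stretch, the MEST antisense RNA MESTIT1 had 3 counts in all libraries together, SSMEM1 10 and TSGA13 1. MIR335, a microRNA gene inside MEST, had 0. Hairpins as short as these are poorly caught by a library of polyadenylated RNA. MIR29A had 7 counts in the 4 PRDM1 libraries and 18 in the 2 GFP libraries, a ratio of 0.237 (0.0836 to 0.594, counting error only), and MIR29B1 had 1 count in all.

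Around the members, the largest change was downward. LINC-PINT, a long noncoding RNA gene known as a p53 target, lies beyond KLF14. It runs head to head with MKLN1 at the MKLN1 start whose preceding stretch is printed above. LINC-PINT had 15.7 and 16.0 CPM in wild type, 12.3 and 11.7 in KO2, 23.7 and 24.0 in KO5, and 15.9 and 15.8 in GFP. With PRDM1α it had 7.38 and 7.29 CPM, and with PRDM1β 8.97 and 7.70. Every PRDM1 library was below every other library. LINC-PINT fell by 1.10 ± 0.10 on the log2 scale with PRDM1α (adjusted p = 9.61e-14) and by 0.93 ± 0.10 with PRDM1β (adjusted p = 9.28e-12), and both calls were made under all alternatives run.

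MKLN1, which encodes muskelin, a subunit of a ubiquitin ligase complex, did not fall as LINC-PINT did. The counts cover all of MKLN1, so how much comes from the start beside LINC-PINT is not known. MKLN1 ranged from 195 to 235 CPM over the 12 libraries. It differed from GFP by 0.04 ± 0.04 with PRDM1α (adjusted p = 0.439) and by 0.10 ± 0.04 with PRDM1β (adjusted p = 0.0329). The latter was lost without GFP replicate 2 (0.07, adjusted p = 0.242) or PRDM1β replicate 2 (0.02, adjusted p = 0.811), with DESeq2 size factors (0.0546), with only the compared groups (0.0738) and under DESeq2 (0.127). Of the 50-base windows of annotated MKLN1 transcripts, 20.4% also occur on the opposite strand in other genes, LINC-PINT among them. For LINC-PINT, 25.3% of windows are shared with other genes on the same strand. Whether the authors' counting used the strand is not stated, so counts of these genes, and of MEST and COPG2, which overlap at their ends, may hold reads of each other. For MEST 18.7% of windows occur on the opposite strand in other genes, and for COPG2 6.52%. For CPA4 the shares are 0.533% on the same strand and 1.04% on the opposite strand.

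PODXL encodes podocalyxin, a surface sialomucin. It had 158 and 152 CPM in wild type, 169.8 and 162 in KO2, 197 and 197 in KO5, and 153 and 148 in GFP. With PRDM1α it had 125 and 124 CPM, and with PRDM1β 129 and 132, below all other libraries. It fell by 0.26 ± 0.04 with PRDM1α (adjusted p = 4.68e-08) and by 0.20 ± 0.04 with PRDM1β (adjusted p = 1.06e-05).

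**Figure D2:**
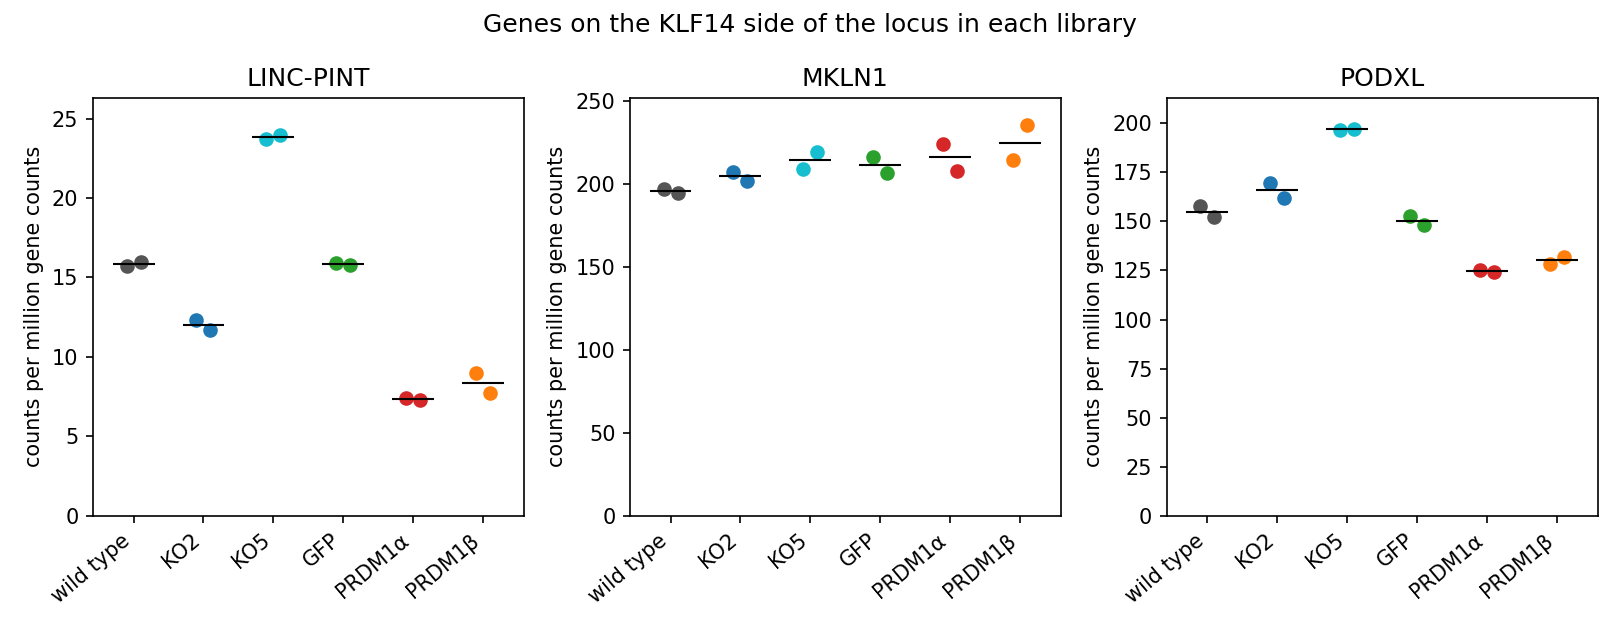
LINC-PINT, MKLN1 and PODXL in CPM on axes from 0, 1 point per library and a line at each group mean. LINC-PINT is between 7.29 and 8.97 in the 4 PRDM1 libraries and between 11.7 and 24.0 in the others, while MKLN1 stays between 195 and 235.

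On the near side of CPA4, UBE2H, a ubiquitin-conjugating enzyme, rose by 0.18 ± 0.04 with PRDM1α (adjusted p = 6.93e-05) and by 0.18 ± 0.04 with PRDM1β (adjusted p = 7.02e-05). ZC3HC1 encodes a protein of the nuclear pore basket. It fell by 0.23 ± 0.06 with PRDM1β (adjusted p = 7.62e-04) and was lower by 0.14 ± 0.06 with PRDM1α (adjusted p = 0.0384), a call lost under DESeq2 (0.101), with wild type as control (0.0502), and without GFP replicate 1 (0.308), PRDM1α replicate 1 (0.112) or PRDM1α replicate 2 (0.140). KLHDC10, a substrate receptor of a ubiquitin ligase, differed by 0.05 ± 0.04 with PRDM1α (adjusted p = 0.384) and by 0.11 ± 0.04 with PRDM1β (adjusted p = 0.0293). The latter was lost with DESeq2 size factors (0.0524), with only the compared groups (0.0855), under DESeq2 (0.136), and without GFP replicate 2 (0.226) or PRDM1β replicate 2 (0.469). TMEM209, closer to CPA4, did not pass with either form (-0.01 ± 0.05, adjusted p = 0.951, and -0.07 ± 0.05, adjusted p = 0.291). MKLN1-AS, at 2.12 to 3.46 CPM, did not pass either (adjusted p = 0.800 and 0.712).

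Over the 11 tested neighbours without CPA4, 3 were higher, 3 lower and 5 not past the threshold with PRDM1α, and 4, 3 and 4 with PRDM1β. Both counts stand beside the percentages of all genes given above. For PRDM1β, 2 were higher without GFP replicate 2 or without PRDM1β replicate 2, and with wild type as control 6 were higher with PRDM1α. No tested neighbour moved by more than 0.36 upward with either form. The genes closest to CPA4 on either side that could be tested, TMEM209 and CEP41, did not pass with either form against GFP. The rise of CPA4 had no counterpart of like size among the tested genes of the stretch. CPA5 beside it had a few counts, in the PRDM1 libraries alone, and its fold could not be compared with that of CPA4.

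**Figure D3:**
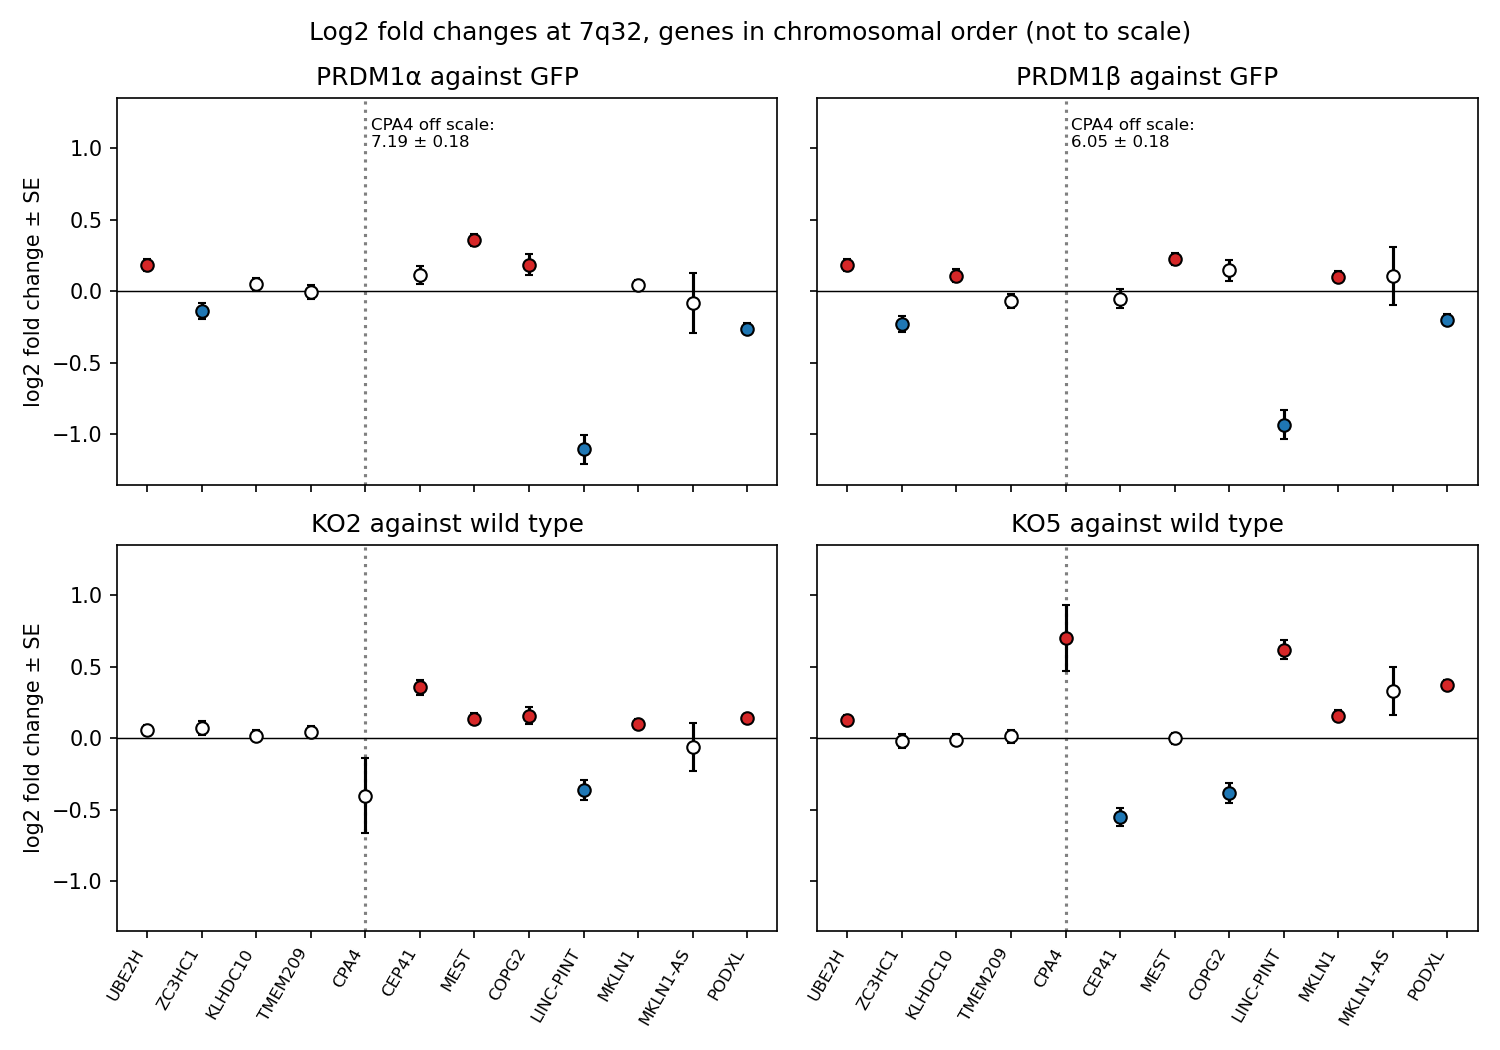
Log2 fold changes with standard errors of the 12 tested genes from UBE2H to PODXL, in chromosomal order and not to scale, for PRDM1α and PRDM1β against GFP and for KO2 and KO5 against wild type. Red points passed upward, blue downward, open points did not pass, and the dotted line marks CPA4, which is off scale in the upper panels (7.19 and 6.05) and carries no test there. LINC-PINT is lowest in the upper panels. CEP41, COPG2 and LINC-PINT passed in opposite directions in KO2 and KO5, though the KO2 call of COPG2 was lost under DESeq2. Other genes, CPA4 among them, differ in sign between KO2 and KO5 without passing in both.

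In the knockouts, CEP41 moved in opposite directions. It was higher in KO2 than in wild type by 0.35 ± 0.05 (adjusted p = 4.29e-07) and fell by 0.55 ± 0.06 in KO5 (adjusted p = 1.85e-10). COPG2 differed by 0.16 ± 0.06 in KO2 (adjusted p = 0.0323) and fell by 0.38 ± 0.07 in KO5 (adjusted p = 3.66e-06). The KO2 call of COPG2 was lost under DESeq2 (adjusted p = 0.184) and when any 1 of the 4 libraries was left out (0.0542 to 0.231). MEST rose by 0.13 ± 0.04 in KO2 (adjusted p = 0.00276), lost without wild-type replicate 2 (0.09, adjusted p = 0.136), and did not pass in KO5 (adjusted p = 0.979).

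LINC-PINT went the other way from CEP41. It fell by 0.36 ± 0.07 in KO2 (adjusted p = 4.61e-05) and rose by 0.62 ± 0.07 in KO5 (adjusted p = 3.31e-11). PODXL rose in both, by 0.14 ± 0.03 in KO2 (adjusted p = 6.42e-04) and by 0.37 ± 0.03 in KO5 (adjusted p = 8.48e-14).

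Without CPA4, 5 neighbours were higher, 1 lower and 5 not past the threshold in KO2, where 30% of all tested genes passed (15.1% higher and 14.9% lower). The KO2 call of MKLN1 (0.10 ± 0.04, adjusted p = 0.0323) was lost when any 1 of the 4 libraries was left out (0.0577 to 0.193) and under DESeq2 (0.0792). In KO5 the counts were 4, 2 and 5, with 51.2% of all genes passing (25.2% higher and 25.9% lower). Between KO5 and KO2, 54.9% of all genes passed (26.8% higher and 28.1% lower). Of the neighbours, 2 were higher in KO5, 3 lower and 6 not past the threshold. Tested directly, CEP41 was lower in KO5 than in KO2 by 0.90 (difference -0.90 ± 0.06, adjusted p = 1.19e-17), and LINC-PINT was higher by 0.98 ± 0.07 (adjusted p = 8.18e-17). GFP overexpression alone left most of the stretch near wild type, with 1 neighbour higher (MKLN1, 0.11 ± 0.04, adjusted p = 0.0293) and 10 not past the threshold, where 19% of all genes passed (8.81% higher and 10.2% lower). The MKLN1 call was lost without either wild-type library (0.0598 and 0.200) or GFP replicate 1 (0.205).

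Set against the knockouts, as in the authors' own tables, the mean of the PRDM1 groups was higher than the mean of KO2 and KO5 by 0.26 ± 0.03 for MEST (adjusted p = 2.11e-11), 0.29 ± 0.05 for COPG2 (adjusted p = 1.21e-06) and 0.20 ± 0.05 for CEP41 (adjusted p = 1.26e-04). For CPA4 it was 6.99 ± 0.13, given as a description. All 3 neighbours passed here, where 58.8% of all genes passed (31% higher and 27.7% lower). For CEP41 and COPG2 the PRDM1 libraries overlapped those of the knockouts. COPG2 averaged 20.9 CPM in KO2 and 14.5 in KO5, against 22.0 with PRDM1α and 21.4 with PRDM1β. CEP41 in each PRDM1 library lay below both KO2 libraries and above both KO5 libraries. For CEP41 the mean of KO2 and KO5 thus stands for neither derivative. The adjusted p of this comparison take in the spread within groups only, and not the difference between KO2 and KO5. The authors' deposited tables do not state whether fold changes were shrunken. They list CPA4 at a log2 fold change of 2.94 (SE 0.20) for PRDM1α and 2.59 (SE 0.21) for PRDM1β against knockout. Both are far below the 6.99 fitted here for the mean of the forms. CPA5, with counts in the PRDM1 libraries alone, is listed at only 0.076 and 0.082. Whether shrinkage accounts for these low values was not tested. The authors' deposited tables list MEST at 0.30 (adjusted p = 4.57e-04) and 0.18 (adjusted p = 0.0813). They list COPG2 at 0.23 and 0.20 and CEP41 at 0.14 and 0.03 in the authors' deposited tables, with adjusted p of 0.395 or more. LINC-PINT stands at -0.78 and -0.68 and PODXL at -0.53 and -0.47 in the authors' deposited tables.

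Lists of related genes placed each member among its relatives. None of the lists is independent of earlier results of these data, and they are described by counts. Of 25 genes for M14 carboxypeptidases and their inhibitors, 9 could be tested, and CPA1, CPA3, CPA6, CPB1 and CPB2, relatives of CPA4, had 0 counts in every library. Among the 8 tested besides CPA4, 2 were higher and none lower with PRDM1α, where 21.2% of all tested genes were higher and 16.3% lower. With PRDM1β 2 were higher and 2 lower, where 22.9% and 18% of all genes were. With wild type as control, 1 was higher and 2 lower with PRDM1α. CPZ, a secreted carboxypeptidase, rose by 0.41 ± 0.09 (adjusted p = 1.21e-04) and 0.54 ± 0.08 (adjusted p = 7.19e-07). CPD, a Golgi carboxypeptidase, rose by 0.10 ± 0.04 (adjusted p = 0.0167) and 0.18 ± 0.04 (adjusted p = 2.24e-05). With wild type as control the PRDM1α call of CPZ was lost (0.13, adjusted p = 0.179). That of CPD with PRDM1α was lost without GFP replicate 2 (adjusted p = 0.338) or PRDM1α replicate 1 (0.370), with only the compared groups (0.0807) and under DESeq2 (0.0742). Latexin (LXN), an inhibitor of A-type carboxypeptidases, did not pass with PRDM1α (-0.12 ± 0.10, adjusted p = 0.368) or PRDM1β (-0.24 ± 0.10, adjusted p = 0.0541), although it passed for PRDM1β with DESeq2 size factors (0.0429) and with only the compared groups (0.0439). The PRDM1α count was 1 without GFP replicate 2 or PRDM1α replicate 1. The 2 genes lower with PRDM1β became 0 without PRDM1β replicate 2 and 1 without any other library of the pair of groups. The median of the 8 was -0.04 with PRDM1α and -0.10 with PRDM1β, against 0.01 over all genes in each.

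Of 37 imprinted genes elsewhere in the genome, 22 were tested. With PRDM1α 14 were higher, 2 lower and 6 not past the threshold (all genes: 21.2% higher and 16.3% lower), and with PRDM1β 13, 1 and 8 (all genes: 22.9% and 18%). Their medians were 0.23 and 0.22, against 0.01 over all genes. Without PRDM1α replicate 2, 9 were higher with PRDM1α. PLAGL1, a zinc-finger gene, went from 19.7 CPM in GFP to 33.4 and 32.4 (0.77 ± 0.07, adjusted p = 2.88e-13, and 0.73 ± 0.07, adjusted p = 2.19e-12). IGF2R, the receptor that clears IGF2, rose by 0.39 ± 0.04 (adjusted p = 1.92e-13) and 0.44 ± 0.04 (adjusted p = 4.55e-15). GRB10, a growth factor receptor adaptor, rose by 0.34 ± 0.05 with PRDM1α (adjusted p = 1.09e-08), and by 0.21 ± 0.05 with PRDM1β (adjusted p = 1.14e-04). CDKN1C, a cyclin-dependent kinase inhibitor, rose by 0.48 ± 0.11 with PRDM1α (adjusted p = 1.06e-04) and by 0.82 ± 0.10 with PRDM1β (adjusted p = 8.91e-10). Over the 22 genes the differences ran from -1.60 to 0.81 with PRDM1α and from -1.01 to 0.82 with PRDM1β. MEST, with 0.36 and 0.22, lay within these ranges. By group means the steepest fall was that of DIRAS3, a sparse gene with only 3 to 22 counts in a library. DIRAS3 went from 0.568 CPM in GFP to 0.180 with PRDM1α and 0.270 with PRDM1β. The noncoding RNA H19 fell by 1.28 ± 0.16 in KO5 against wild type (adjusted p = 2.65e-09). In that comparison 10 of the 22 were higher, 6 lower and 6 not past the threshold (all genes: 25.2% higher and 25.9% lower), with a median of 0.11 against -0.00 over all genes.

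Among the COPI genes without COPG2, 9 were tested, and 2 were higher and 1 lower with each form, beside 21.2% higher and 16.3% lower over all genes with PRDM1α and 22.9% and 18% with PRDM1β. Without GFP replicate 2, 2 were lower with PRDM1α. ARCN1, the delta subunit, rose by 0.17 ± 0.04 (adjusted p = 5.57e-05) and 0.21 ± 0.04 (adjusted p = 1.52e-06). COPB1 fell by 0.15 ± 0.04 with PRDM1α (adjusted p = 4.43e-04), a call lost with wild type as control (adjusted p = 0.0776). COPE fell by 0.13 ± 0.04 with PRDM1β (adjusted p = 0.0101), and it did not pass when GFP replicate 1 (0.178) or PRDM1β replicate 1 (0.0539) was left out, each of which left 0 lower genes. The 2 higher with PRDM1β were 1 without any library of these groups except GFP replicate 1. The medians were 0.00 and -0.03, so that the differences of COPG2 stood in a list with movement in either direction.

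Among 12 tested KLF genes, which do not include the silent KLF14, 5 were higher with PRDM1α and 4 with PRDM1β, and none were lower. Over all genes 21.2% were higher and 16.3% lower with PRDM1α, and 22.9% and 18% with PRDM1β. KLF10, induced by TGF-beta, rose by 0.47 ± 0.05 (adjusted p = 1.31e-12) and 0.43 ± 0.05 (adjusted p = 1.37e-11). KLF6 rose by 0.23 ± 0.04 (adjusted p = 2.44e-06) and 0.22 ± 0.04 (adjusted p = 6.09e-06). KLF9 rose by 0.56 ± 0.12 with PRDM1α (adjusted p = 2.49e-04) and by 0.80 ± 0.12 with PRDM1β (adjusted p = 2.98e-07). KLF5, an intestinal epithelial factor, rose by 0.29 ± 0.06 with PRDM1α (adjusted p = 1.29e-04) and did not pass with PRDM1β (0.10 ± 0.06, adjusted p = 0.189). The medians were 0.10 and 0.12. With wild type as control 5 KLF genes were higher with PRDM1α and 6 with PRDM1β, and 0 were lower with either. The counts varied with a library left out, and that of lower genes with PRDM1β changed without PRDM1β replicate 2.

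Of 15 tested Joubert and ciliary genes without CEP41, none were higher and 6 were lower with each form, with medians of -0.15 and -0.15. Over all genes 21.2% were higher and 16.3% lower with PRDM1α, and 22.9% were higher and 18% lower with PRDM1β. With wild type as control 1 of the list was higher and 6 lower with PRDM1α, and 0 and 7 with PRDM1β. The number lower also varied with a library left out. KIAA0586, a centrosomal gene also known as TALPID3, fell by 0.79 ± 0.08 (adjusted p = 1.56e-12) and by 0.90 ± 0.08 (adjusted p = 4.35e-14), and AHI1 fell by 0.35 ± 0.06 (adjusted p = 1.24e-05) and by 0.45 ± 0.06 (adjusted p = 1.19e-07). TMEM216 fell by 0.32 ± 0.08 with either form (adjusted p = 6.46e-04 for PRDM1α and 5.83e-04 for PRDM1β). In KO5, where CEP41 was lowest, 6 of the 15 were higher, 3 lower and 6 not past the threshold, beside 25.2% higher and 25.9% lower over all genes.

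The genes whose log2 CPM followed CPA4 most closely lay outside the stretch. Over the 12 libraries and 10414 genes with at least 5 CPM in a group, the highest Pearson correlations were those of LYST (0.995), EPG5 (0.993), DUSP5 (0.992), NR2F2 (0.991) and PMAIP1 (0.991). The libraries fall into 2 sets, the 4 with PRDM1 and the 8 without, so these values mostly describe a step between the sets, and no p is given. In the stretch the highest was UBE2H at 0.92, followed by MEST at 0.89, and CEP41 had 0.15.

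LYST, which encodes a regulator of lysosome size, had 12.6 CPM on average in GFP, 57.5 in PRDM1α and 42.2 in PRDM1β. PMAIP1, the p53 target that encodes NOXA, had 24.0, 206 and 139.8 CPM, and NR2F2, a nuclear receptor, 37.9, 125 and 95.3 CPM. DUSP5, a phosphatase that turns off ERK, had 19.3, 40.8 and 38.2 CPM, and EPG5, an autophagy gene, 57.1, 132 and 129 CPM. In each of them every PRDM1 library was above the 8 others. They were chosen for following CPA4, which has this step, so the separation comes with the choice and is no separate result. Their log2 differences from GFP, at 3.11 or less, were smaller than that of CPA4.

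**Figure D4:**
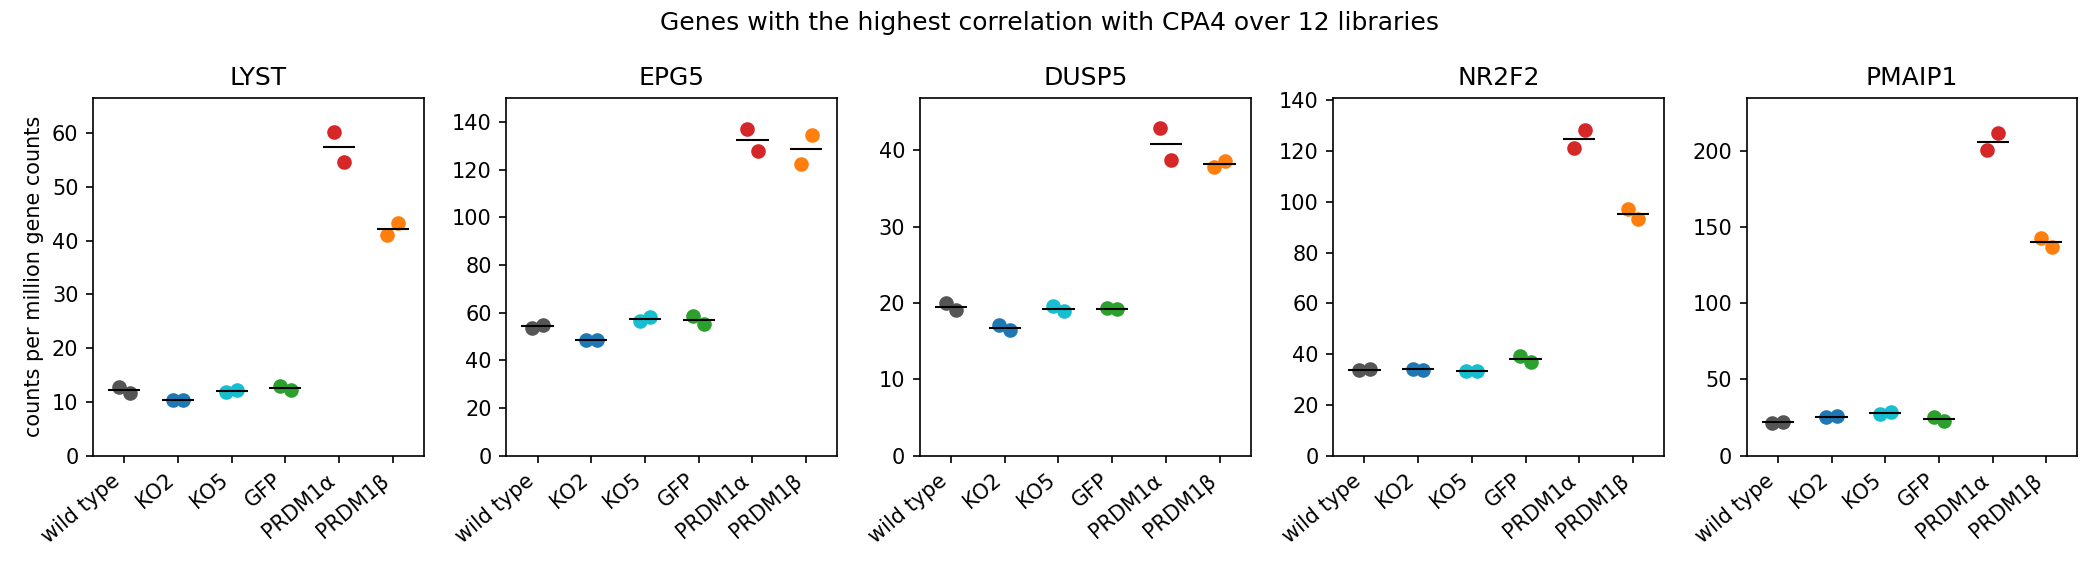
The 5 genes with the highest Pearson correlation with CPA4 over 12 libraries, in CPM on axes from 0, 1 point per library and a line at each group mean. In each panel the 4 PRDM1 libraries stand above the 8 others, which comes with the choice of genes by correlation. PMAIP1 reaches 206 on average with PRDM1α against 24.0 with GFP.

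Marker genes checked the labelled cell type. The summed level of 7 epithelial markers ranged from 819 to 1189 CPM, nearly all of it KRT8 and KRT18, with CDX2 present, while EPCAM had 0 counts in all libraries and CDH1, VIL1 and KRT19 had at most 2 in any. The 4 exocrine pancreas markers had 0 counts throughout, as had CPA1. The leukocyte markers summed to at most 0.0992 CPM (CD3E and CSF1R at 0) and the endothelial markers to at most 0.127 CPM (PECAM1 and CDH5 at 0). The 6 fibroblast markers summed to 12.1 to 13.0 CPM in PRDM1α, 9.93 to 10.9 in PRDM1β, 9.38 to 9.80 in GFP, 10.3 to 12.2 in wild type, 8.37 to 8.98 in KO2 and 12.6 to 12.7 in KO5. DCN was at 0 in every library, and COL1A2 and COL3A1 had at most 2 counts in any. Of the 2 fibroblast markers tested, COL1A1 rose with PRDM1α by 0.74 ± 0.12 (adjusted p = 3.68e-06) and PDGFRB fell by 0.45 ± 0.18 (adjusted p = 0.0417). Neither passed with PRDM1β (adjusted p = 0.0554 and 0.290). Sums of epithelial markers were 819 to 823 CPM in PRDM1α, 929 to 930.4 in PRDM1β and 902 to 929 in GFP, and their part in the results was not tested.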

How the data were processed

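The data are 12 RNA-seq libraries, grouped by their labels into 6 groups of 2. The submitters' processing notes name TopHat, Bowtie2, Cufflinks and build hg19. Versions, the read counter and its strand setting are not given in the sources used here. The authors deposited whole-read counts per gene symbol with no normalization, 26366 entries a library, of which 2 name no gene and were left out (no feature, 9.13% to 10.8%, and ambiguous, 1.66% to 1.75%). The authors also deposited DESeq2 tables of overexpression against knockout, per the file headers. They hold log2 fold changes and standard errors, p-values, a score (the Wald statistic) and the mean of normalized counts, by the authors. A deposited table named for both forms equalled the PRDM1β table and was left out.

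The test was edgeR 4.0.16 in R 4.3.3: filterByExpr (12858 genes kept), TMM scaling, and a robust quasi-likelihood fit of 6 group means to all 12 libraries. Genes passed at a Benjamini-Hochberg adjusted p under 0.05 over all tested genes in each of 8 comparisons. The fit was tested on simulated data. Wald standard errors were computed with a quasi-likelihood dispersion of at least 1. Levels are CPM of gene counts without TMM, with SD over n = 2, and correlations used log2 CPM with a prior count of 2. A limit of 3 counts is 0.0536 to 0.157 CPM in a library. Intervals are 95% and cover counting error only. Replicate numbers did not pair the libraries: the correlation of same-numbered deviations ranged from -0.07 to 0.06 over 15 pairs of groups. RefSeq (GRCh38.p14) gave names, gene order and promoter sequences, and GENCODE 29 transcripts gave the share of 50-base windows shared between genes.

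The members and lists were chosen with earlier results of these data known. Named genes were the members, the genes between UBE2H and PODXL, from each list up to 3 with the smallest adjusted p and at least 5 CPM, and the 5 genes most correlated with CPA4. LXN was added after its values were seen. Some genes that this rule names are not reported here. Alternatives were DESeq2 1.42.0 (size factors or its Wald test), no filter on low counts, the compared groups alone, a replicate block, wild type as control, PRDM1 left out before scaling, and each library left out in turn.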

Additional observations from a re-analysis of the deposited data

Results flagged for a closer look

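The knockout derivatives KO2 and KO5 differed from each other in 6 genes of the stretch that are described above, each by a direct test of KO5 against KO2 (edgeR quasi-likelihood test, adjusted over all genes), in a comparison where 54.9% of all tested genes passed. CPA4 was higher in KO5 by 1.10 on the log2 scale, with 1.57 and 1.26 CPM against 0.796 and 0.477. For CPA4 this is descriptive only, since both knockouts were on the low side of a contrast that chose it. LINC-PINT was higher by 0.98 and PODXL by 0.24. CEP41 differed by -0.90, COPG2 by -0.54 and MEST by -0.14, all lower in KO5. For CEP41, COPG2 and LINC-PINT the KO2 and KO5 libraries lay on opposite sides of both wild-type libraries. The share of all genes with this pattern was not counted, so it cannot be called particular to the stretch.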

How the results depend on the processing

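Groups of 2 libraries, sparse CPA4 counts outside the PRDM1 groups and unstated strand use set the limits. Of the values for single genes under the alternatives, 944 kept direction and side of the threshold, 41 fell short of it, 11 newly passed and 34 changed sign. CPA4 changed sign in no alternative run. Leaving out 1 library, its log2 difference was 6.96 to 7.45 for PRDM1α and 5.82 to 6.31 for PRDM1β against GFP, and 0.53 to 0.91 for KO5 against wild type.

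Genes passing between PRDM1α and PRDM1β numbered 802, and 387 (without PRDM1β replicate 2) to 497 with a library left out and 426 with the DESeq2 Wald test. For KO2 against wild type they were 3857, 2557 (without wild-type replicate 2) to 3157, and 2368. For GFP against wild type they were 2444, 628 (without wild-type replicate 2) to 2120, with 1076 without GFP replicate 2, and 1443. Of the 11 neighbours, 3 were higher with PRDM1α and 6 with wild type as control. For PRDM1β 4 were higher, and 2 to 4 with a library left out, and 2 with DESeq2 size factors, with only the compared groups or with the DESeq2 Wald test. The cause was not tested.

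Signs changed, among genes of the stretch, only for differences that did not pass. ARF1, a COPI regulator, passed upward with PRDM1β against GFP and was at -0.0297 (adjusted p = 0.413) against wild type. With wild type as control, TMEM209 and MKLN1-AS (PRDM1α) were at 0.0136 and 0.00128, and CEP41 (PRDM1β) at 0.0205. MEST in KO5 was at 0.00752 with DESeq2 size factors and 0.00683 with its Wald test. With a library left out the ranges were as follows. PRDM1α against GFP gave MKLN1 -0.0189 to 0.0958, MKLN1-AS -0.286 to 0.173 and TMEM209 -0.018 to 0.00662. PRDM1β against GFP gave MKLN1-AS -0.0975 to 0.361. PRDM1α against PRDM1β gave COPG2 -0.00893 to 0.0912, MKLN1 -0.123 to 0.0121 and UBE2H -0.0141 to 0.017. KO2 against wild type gave KLHDC10 -0.0108 to 0.0401 and MKLN1-AS -0.141 to 0.0629. KO5 against wild type gave KLHDC10 -0.034 to 0.0144, MEST -0.0427 to 0.0366, TMEM209 -0.0458 to 0.072 and ZC3HC1 -0.0688 to 0.0363. KO5 against KO2 gave KLHDC10 -0.0497 to 0.000309 and TMEM209 -0.0889 to 0.0294. GFP against wild type gave LINC-PINT -0.00383 to 0.0172, MEST -0.00664 to 0.0709, MKLN1-AS -0.172 to 0.287, TMEM209 -0.00229 to 0.0392 and ZC3HC1 -0.0326 to 0.0675. Overexpression against knockout gave MKLN1-AS -0.164 to 0.0886.

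With the replicate number as a block, 4761 genes passed for PRDM1α and 5203 for PRDM1β against GFP, and it changed no call of a gene in the stretch. The pairing check found no pair of groups over 0.1.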
